A study of Homo sapiens with 10 samples.

Results

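The comparison described here sets the RNA of BJ fibroblasts at 4 h of nutlin-3a against that of the control library, across all genes that were expressed in either. A gene was taken where its RNA-Seq value reached 5 FPKM (sequenced fragments adjusted for the length of the transcript and the depth of the library, so a level per length) in at least 1 of the 2 libraries, and values below 1 FPKM were set to 1 before ratios were taken. By this rule 8118 of the 13279 genes in the RNA-Seq table were members, 61.1% of it. The gene nearest to the limit inside was C6orf64, at 5.00 FPKM in the control, and the nearest outside was EIF5A2, at 4.998 FPKM at 4 h. BJ cells are primary human fibroblasts that were immortalized by expression of the telomerase subunit hTERT. The control group is labelled as a control sample and the treated group as nutlin-3a for 4 h, and neither label gives a dose or a vehicle. Further RNA-Seq libraries of 2, 6 and 19 h of nutlin-3a share the same control, and a Ribo-Seq library exists for the control and for each time. With 1 library in each group there is no replicate to check a difference against, no p-value was computed, and the errors given cover the counting of reads only.

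Nutlin-3a is a small molecule that occupies the p53-binding pocket of MDM2, the ubiquitin ligase that marks p53 for degradation, so that p53 protein accumulates and activates its target genes without DNA damage. The targets include brakes on the cell cycle such as the CDK inhibitor p21, genes of cell death, DNA repair and metabolism, and MDM2 itself, which closes a negative feedback loop. In proliferating fibroblasts p21 keeps the retinoblastoma family active, and this family together with repressor complexes silences the E2F-driven genes of DNA replication and the genes of mitosis.

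The control library held about 23846000 reads and the 4 h library about 24433000, totals that were worked out from how the FPKM values are spaced, and the other 3 RNA-Seq libraries held 26049000 to 27554000. A member had a median of 1263 reads in the control and 1238 at 4 h, which gave a median counting SE of 0.0581 for a log2 change. All 10 fibroblast markers were above 5 FPKM in both libraries, with summed levels of 10700 FPKM in the control and 10500 at 4 h. The epithelial and endothelial markers in the table, 3 of 10 and 3 of 8, were all below 1 FPKM in both libraries. Of 5 immune markers in the table, CD68, a lysosomal protein that fibroblasts also make, was the only one above 5 FPKM. Of 6 melanocyte markers 3 were in the table, and 2 were below 1 FPKM in both libraries while MITF, a transcription factor, was at 6.79 FPKM in the control and 4.49 at 4 h. None of the marker genes moved 2-fold.

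At 4 h, 109 of the 8118 genes were at least 2-fold higher than in the control and 67 were at least 2-fold lower, together 2.17%. The separate shares of 1.34% and 0.825% are the background against which each list below is read. The median gene stood at a log2 change of -0.079, and 33.1% of all genes were higher by any amount. The called rises were larger than the called falls, with 22 genes past 4-fold upward and 3 past 4-fold downward. The higher genes had a median level of 7.78 FPKM in the control and 26.5 FPKM at 4 h, while the lower genes had 12.7 and 4.7 FPKM. For each of the 176 genes the 95% counting interval of the log2 change left out 0, and for 126 of them it lay wholly past 2-fold. Genes were called at 2-fold on the same values, and the 90th percentile of the counting SE was 0.107. An interval that left out 0 thus followed almost wholly from the 2-fold limit and is no further support for the calls. Just inside the 2-fold limit were SLC3A2, at 52.9 FPKM in the control and 105.8 at 4 h, and MASTL, at 12.96 and 6.46 FPKM. Just outside were TNFAIP8, at 2.82 and 5.62 FPKM, and MCM2, at 42.6 and 21.4 FPKM.

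**Figure D1:**
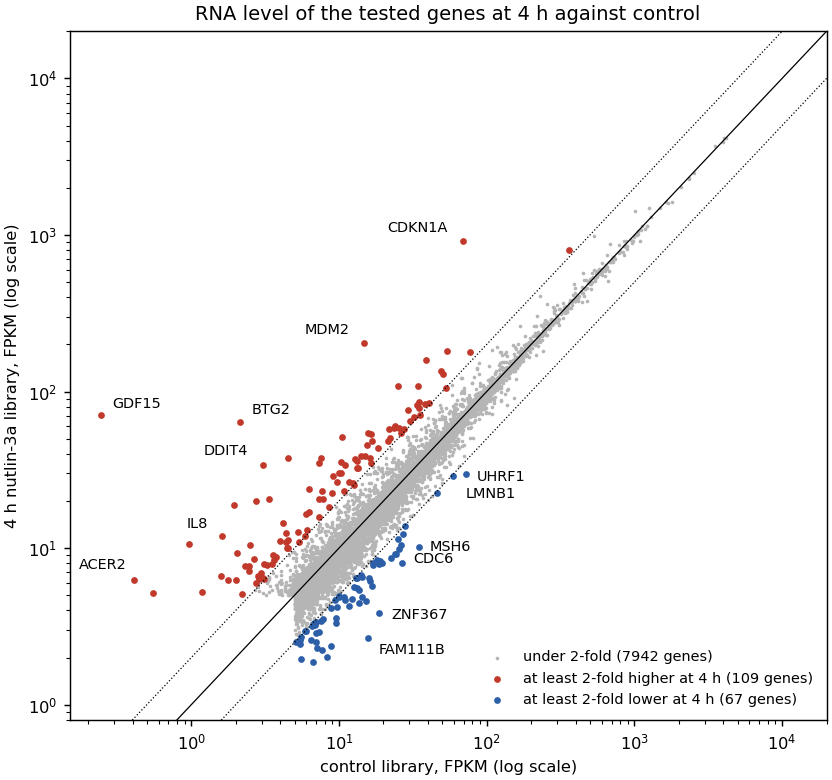
RNA level of each of the 8118 genes in the control library (horizontal, FPKM, log scale) and in the 4 h library (vertical, FPKM, log scale), where each point is a gene and the dotted lines mark 2-fold. The 109 higher genes (red) reach up to GDF15, MDM2 and CDKN1A, and the 67 lower genes (blue) all lie below 30 FPKM at 4 h.

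By level, calls were spread as follows. Among genes with a mean of less than 10 FPKM over both libraries, 39 of 2312 rose and 42 fell. Between 30 and 100 FPKM, 31 of 1752 rose and 3 fell, and of the 611 genes above 100 FPKM 5 rose and 0 fell. Of the lower genes 38 reached the limit of 5 FPKM in the control only, and of the higher genes 42 at 4 h only, and a fall itself lowers the mean, so these counts are not independent of the direction. By length of the transcript, rises made up between 1.23% and 1.53% of the genes in each of 4 classes of length. Falls made up 1.38% of the genes between 2837 and 4386 nucleotides and 0.395% of the longer ones.

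The targets of p53 held most of the large rises. Of 152 tested members of the p53 lists together, 45 rose and 1 fell, which is 29.6% and 0.658% against the background of 1.34% and 0.825%, with a median log2 change of 0.45. The study lists 25 genes as known p53 targets, and 24 of them matched a symbol in the table. The entry PAPP did not. Of these 24, 19 rose and 0 fell, with a median of 1.74. With a mean of at least 20 FPKM required, fewer members were left to test, and 11 of them were called and 22 of the p53 lists together. That limit takes genes out of the test and does not change their ratios. Of all 109 higher genes 51 met it, and these 51 stayed called. The study's list was named from nutlin-3a data of the same cells, so its count is not independent evidence. The other p53 lists, and the lists below, were written with earlier results of these data known. Their counts are therefore not independent of the values either.

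The negative feedback regulators of p53 were higher by a median log2 change of 1.12, with 6 of 11 tested genes called and all 6 upward. MDM2 stood at 14.9 FPKM in the control and 203 FPKM at 4 h, 13.7-fold higher, with a log2 change of 3.77 (counting SE 0.029). PHLDA3, a repressor of AKT signalling, went from 39.1 to 159 FPKM, and PPM1D, which encodes the phosphatase WIP1 that removes activating phosphates from p53, from 4.15 to 14.5 FPKM. TRIAP1, an inhibitor of apoptosis that p53 induces, went from 15.7 to 54.2 FPKM. The remaining calls were TRIM22 and CCNG1, the gene of cyclin G1. MDM4, the partner of MDM2, was at a log2 change of -0.13 and was not called.

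Among p53 targets that arrest the cell cycle, 7 of 14 rose and 1 fell, with a median log2 change of 1.04. CDKN1A, the gene of p21, was at 68.6 FPKM in the control and 914.6 FPKM at 4 h, 13.3-fold higher (log2 change 3.74, counting SE 0.034). It was the most abundant transcript among the 109 higher genes at 4 h. BTG2, an antiproliferative cofactor of mRNA deadenylation, rose from 2.15 to 64.1 FPKM, a 29.8-fold change. GADD45A, a stress sensor, went from 50.9 to 130.2 FPKM, and PLK3, a stress-responsive kinase, from 10.4 to 35.2 FPKM. GADD45A read 135.1 FPKM in the 2 h library, above its 4 h level. ZMAT3, an RNA-binding protein, rose from 9.94 to 30.1 FPKM. The gene that fell was KLF4, a transcription factor that activates CDKN1A, from 7.02 to 2.88 FPKM.

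Genes of cell death rose in part. In the BCL2 family 3 of 10 tested genes rose, and all 3 encode proteins that promote death. BBC3, which encodes PUMA, went from 1.95 to 18.9 FPKM, 9.69-fold higher. BAK1, a pore-forming effector, went from 11.6 to 26.6 FPKM and PMAIP1, which encodes NOXA, from 8.51 to 18.4 FPKM. The protective members MCL1 and BCL2L1 were at log2 changes of 0.51 and 0.53 and were not called, and BAX was not analysed here. The death receptor genes TNFRSF10B and TNFRSF10A rose from 25.01 to 109 FPKM and from 1.59 to 6.61 FPKM, at log2 changes of 2.13 and 2.05. PIDD, a death domain adaptor, rose from 5.32 to 12.7 FPKM, so that 3 of 11 genes on the receptor list were called, while the caspase gene CASP8 was at 0.05. Of 13 other death targets, 4 rose. TP53INP1, a cofactor of p53 in stress, rose from 2.75 to 20.1 FPKM, TRAF4, a signalling adaptor, from 11.05 to 33.8 FPKM, and TP53I3, a quinone oxidoreductase, from 7.64 to 23.004 FPKM.

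The sestrins, which restrain the growth kinase mTOR, were both among the 15 largest rises. SESN2 stood at 4.53 FPKM in the control and 37.5 at 4 h, an 8.27-fold change, and SESN1 at 3.38 and 20.4 FPKM, a 6.05-fold change. DDIT4, or REDD1, another brake on mTOR that also responds to stress, went from 3.05 to 34.2 FPKM. These were the 3 calls among 10 tested mTOR brakes. The constitutive genes TSC1 and TSC2 were at log2 changes of -0.02 and -0.14.

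Genes of DNA repair and of metabolism that p53 is known to induce split into a few steep rises and many members near no change. Of 13 repair and nucleotide supply genes, 4 rose, and the median log2 change was 0.19. RRM2B, the p53-inducible subunit of ribonucleotide reductase, went from 9.66 to 26.5 FPKM, POLH, a translesion polymerase, from 13.5 to 32.3 FPKM and DDB2, a damage recognition factor of nucleotide excision repair, from 18.3 to 43.7 FPKM. On the same list FANCC was at a log2 change of -0.93 and was not called. Among 15 metabolic targets, 4 rose. ACER2, a ceramidase, was below the floor in the control at 0.412 FPKM and reached 6.25 FPKM, at least 6.25-fold higher. C12orf5, the gene of the fructose bisphosphatase TIGAR, went from 10.4 to 51.2 FPKM, FDXR, a mitochondrial ferredoxin reductase, from 7.27 to 35.1 FPKM and CYFIP2 from 2.49 to 10.53 FPKM. SCO2, FUCA1 and SOD2 were at log2 changes of -0.29, 0.06 and 0.08. Of the 14 autophagy and trafficking targets 1 rose, the lysosomal protein gene DRAM1, from 35.2 to 70.6 FPKM.

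The largest rise of all was that of GDF15, a secreted stress cytokine of the TGF-beta superfamily. It was at 0.245 FPKM in the control, which rested on 7 reads, and at 70.7 FPKM at 4 h, from 2072 reads, so it was at least 70.7-fold higher against the floor of 1 FPKM. All 17 tested p53 targets that are secreted or act at the cell surface were above 0, with 7 called and a median log2 change of 0.80. EFNB1, a membrane-bound ephrin, rose from 2.00 to 6.25 FPKM and SPATA18, a mitochondrial quality control gene placed on that list, from 2.67 to 8.58 FPKM. ANKRA2, also placed there, rose from 3.96 to 11.1 FPKM. The 29 targets of other or little known function were also all above 0, and 6 of them rose. ZNF79, a zinc finger gene, went from 2.32 to 7.66 FPKM and FHL2, a LIM domain cofactor, from 77.0 to 178 FPKM. KIAA0247 and PSTPIP2 were at log2 changes of 1.46 and 1.31.

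**Figure D2:**
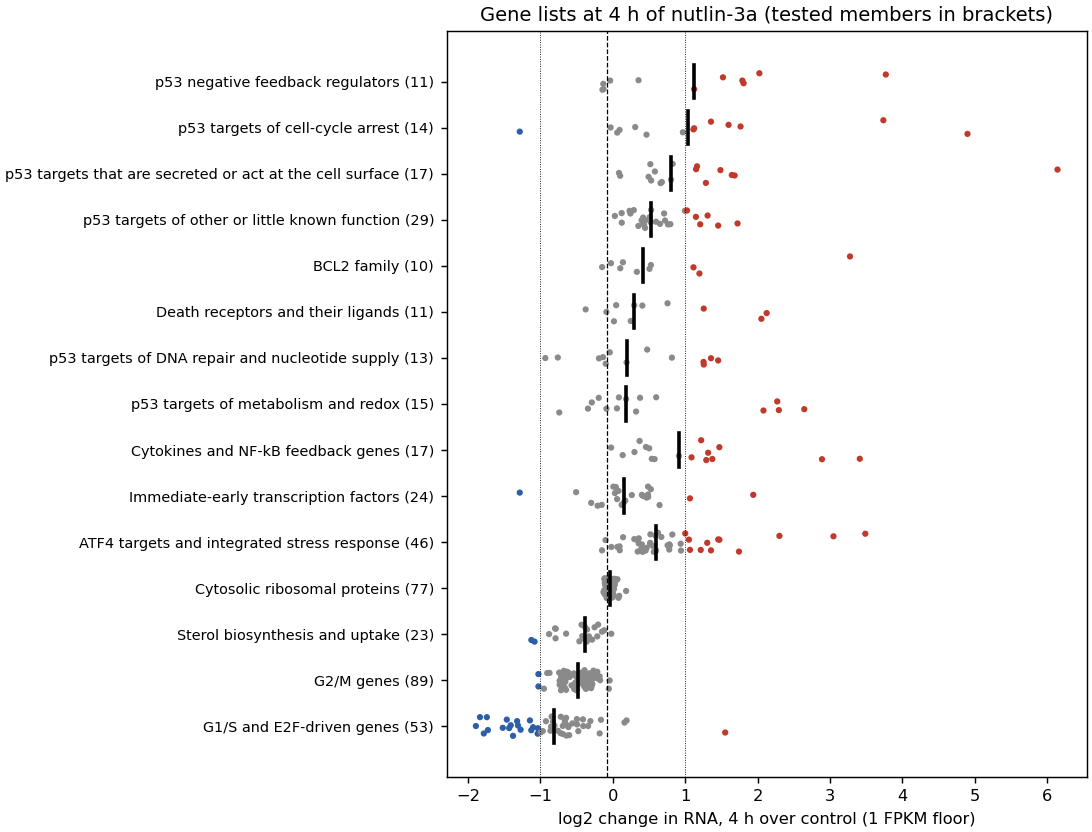
Log2 change in RNA at 4 h over control (horizontal) for the tested members of 15 gene lists, with each point a gene, red for at least 2-fold higher, blue for at least 2-fold lower, and a bar at the list's median. The dashed line marks the median of all 8118 genes at -0.079, and the lists run from feedback regulators of p53 with a median of 1.12 to G1/S genes with a median of -0.81.

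Genes of the integrated stress response were higher alongside the p53 targets. This response raises the transcription factor ATF4, which turns on amino acid synthesis, amino acid transporters and tRNA synthetases. Of 46 tested ATF4 targets 12 rose and 0 fell, 26.1% against 1.34% of all genes, the median log2 change was 0.59, and 43 of the 46 were above 0. Against the 2 h library 7 were called. DDIT4, SESN2 and GADD45A are on this list and also on p53 lists. Apart from these, CHAC1, which degrades glutathione, rose from 7.58 to 37.4 FPKM and SLC7A5, the light chain of the LAT1 amino acid transporter, from 53.9 to 180.4 FPKM. TRIB3, a pseudokinase, went from 5.96 to 16.6 FPKM, ASNS, asparagine synthetase, from 14.04 to 38.5 FPKM, and PSAT1, of serine synthesis, from 34.6 to 85.3 FPKM. SLC7A11, the cystine transporter, MTHFD2, of mitochondrial folate metabolism, SLC3A2, the shared heavy chain of both transporters, and the transcription factor gene CEBPB were also called. The tRNA synthetase genes on the list lay between -0.02 for VARS and 0.82 for CARS and none was called. ATF4 itself was at 150.4 FPKM in the control and 199 FPKM at 4 h, a log2 change of 0.40, and ATF3, a target of ATF4, went from 0.454 to 4.59 FPKM and so stayed below the limit of 5 FPKM for testing. The chaperones and enzymes of the endoplasmic reticulum were near no change, with a median log2 change of -0.01 over 24 genes. The only call there was ERN1, the gene of the sensor IRE1, which went from 2.21 to 5.10 FPKM.

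Cytokine and NF-kB feedback genes rose in 8 of 17 cases and none fell, with a median log2 change of 0.91. LIF, a cytokine of the interleukin-6 family, was at 0.962 FPKM in the control and 10.6 FPKM at 4 h, at least 10.6-fold higher. IL8, a chemokine that attracts neutrophils, went from 1.62 to 12.03 FPKM, 7.41-fold higher. CCL2, a monocyte chemokine, rose from 48.8 to 135 FPKM and PTGS2, the prostaglandin synthase COX-2, from 29.2 to 75.8 FPKM. IL11, RELB, ICAM1 and CSF1 were the other calls, at log2 changes of 1.29, 1.32, 1.22 and 1.09. The NF-kB inhibitor genes NFKBIA and TNFAIP3 were at 0.58 and 0.50 and were not called. LIF, IL11 and PTGS2 were above their 4 h level already at 2 h, with 18.8, 41.1 and 79.6 FPKM. Against the 2 h library the median of the cytokine list at 4 h was 0.036, and 1 member was called. With a mean of at least 20 FPKM required, fewer members were left to test, and 4 of those were called against the control.

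Immediate-early transcription factors, which respond to growth factors and stress within minutes, were near the control at 4 h. Of 24 tested, 2 rose and 1 fell, with a median log2 change of 0.16. BHLHE40, a repressor of the circadian clock, went from 6.24 to 24.0 FPKM, and CEBPB from 12.4 to 26.0 FPKM, while KLF4 fell. EGR1 was measured at 47.8 FPKM in the control and 67.0 FPKM at 4 h and MYC at 24.2 and 17.0 FPKM, neither of which was called, and FOS stayed below the limit at 1.17 and 1.65 FPKM. The 2 h library stood higher for these genes, with a list median of 0.96 over the control, and against it the median at 4 h was -0.79. BHLHE40 read 51.1 FPKM and CEBPB 26.9 FPKM at 2 h. Of the MAPK feedback genes, 2 of 13 rose. These were ERRFI1, an inhibitor of the EGF receptor, from 35.0 to 78.0 FPKM, below the 114 FPKM of the 2 h library, and PHLDA1 from 32.4 to 69.0 FPKM.

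The genes of DNA replication and the G1/S transition held the largest group of falls. Of 53 tested genes 18 fell and 1 rose, which is 34% against 0.825% of all genes lower, and the median log2 change was -0.81. The 18 became 11 with a floor of 5 FPKM. With a mean of at least 20 FPKM required, fewer members were left to test and 2 were called lower. A lower level of these transcripts in a bulk library cannot tell fewer cells in S phase from less RNA per cell. ORC1, a subunit of the origin recognition complex, was at 8.85 FPKM in the control and 2.39 FPKM at 4 h, 3.71-fold lower. CDC6, which loads the MCM helicase with CDT1, went from 26.7 to 8.01 FPKM, and CDT1 from 16.3 to 6.12 FPKM. CDC25A, the phosphatase that activates CDK2, went from 7.63 to 2.22 FPKM and E2F8, a repressor of the E2F family, from 6.64 to 1.86 FPKM. DTL, which marks CDT1 for degradation, fell from 15.2 to 4.58 FPKM, and MCM10, a replication fork factor, from 9.50 to 3.31 FPKM.

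Calls and misses lay side by side among genes of like function on the G1/S list. ORC1 was called and ORC6, of the same complex, was at a log2 change of -0.69. Of the GINS genes, whose products work with the helicase at the fork, GINS3 was called at -1.32, while GINS1, GINS2 and GINS4 were at -0.64, -0.92 and -0.16. CDC45, of the same helicase, was at -0.49. The chromatin assembly factor genes CHAF1A and CHAF1B were called at -1.38 and -1.13, and the histone chaperone gene ASF1B was at -0.50. The 6 genes of the MCM2-7 helicase lay between -0.99 for MCM2, just short of the 2-fold limit, and -0.41 for MCM7. Of the nucleotide synthesis genes, RRM2, the S phase subunit of ribonucleotide reductase, was at 109 FPKM in the control and 71.4 FPKM at 4 h. PCNA, the sliding clamp that p53 also induces, was at 0.19. The 1 gene that rose was E2F7, a repressor of the E2F family and a p53 target, from 10.3 to 30.2 FPKM. CCNE2, cyclin E2, was at 4.74 and 1.13 FPKM and so below the limit for testing.

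Of the 67 lower genes, 22 were on a cell-cycle list and 41 were on no list. The largest falls among the latter were those of FAM111B, a serine protease gene, from 15.6 to 2.68 FPKM (5.83-fold), and of ZNF367, a zinc finger gene, from 18.6 to 3.84 FPKM (4.85-fold). MSH6, of mismatch repair, went from 34.9 to 10.2 FPKM, CDCA7, a MYC-responsive gene, from 13.7 to 4.48 FPKM, and WDR76 from 14.3 to 4.87 FPKM. DSN1, of the kinetochore, fell from 16.6 to 5.72 FPKM, and TFAP4, a transcription factor that represses CDKN1A, from 5.49 to 1.97 FPKM. A further 5 were picked out after their values were seen. GMNN, the inhibitor of CDT1, fell from 25.5 to 9.83 FPKM, UNG, a uracil DNA glycosylase, from 24.3 to 9.17 FPKM, FBXO5, an inhibitor of the anaphase-promoting complex, from 26.1 to 10.53 FPKM, WEE1, the inhibitory kinase of CDK1, from 25.2 to 11.4 FPKM and SKP2, which targets CDK inhibitors for degradation, from 28.1 to 13.9 FPKM. Other falls included those of GAS1, a membrane protein of growth-arrested fibroblasts, from 8.34 to 2.01 FPKM, KCNN2, a potassium channel, from 7.07 to 2.32 FPKM, and BMP4, a secreted morphogen, from 13.6 to 5.38 FPKM. Not all of the 67 lower genes are named here.

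The promoters of the lower genes were searched for the letters that E2F factors bind, since the falls gathered among replication genes. RefSeq promoters of 300 bases (GRCh38.p14, 250 before to 50 after each start) could be matched for 6698 of the members, 56 of them among the lower genes. The E2F motif was spelled TTTCCCGC, TTTGGCGC, TTTCGCGC or TTTGCCGC and searched on both strands. It was found in 3.32% of all promoters in the RefSeq table and in 5.37% of the promoters of all members. The share was 24.7% of the 77 promoters of lower genes and 6.61% of the 121 of higher genes. Of the 51 promoters of lower genes on no cell-cycle list, 8 held it, or 15.7%. Absence from these lists does not place a gene outside the cell cycle, since GMNN, the inhibitor of CDT1, is among those with the motif. The share was 40% on the G1/S list, which was compiled from genes known to be driven by E2F. The CHR motif TTTGAA, which the repressor complex of mitotic genes binds, was in 55.4% of G2/M promoters, in 7.79% of those of lower genes and in 10.1% of those of all members. Such a match is a run of letters, not a measured binding site. The stretches below are those of 8 genes that fell and held the E2F motif, which is in capitals, each written 5′ to 3′ on the strand of its gene.
ZNF367: gttccgcccagGCGCGAAAtgtaacgcggg
CDC25A: ggtggattccgTTTGGCGCcaactaggaaa
MSH6: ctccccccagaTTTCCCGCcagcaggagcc
CDC6: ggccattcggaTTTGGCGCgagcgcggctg
DTL: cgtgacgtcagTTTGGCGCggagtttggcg
CDT1: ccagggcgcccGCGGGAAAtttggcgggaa
GMNN: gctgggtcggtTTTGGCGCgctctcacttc
CLSPN: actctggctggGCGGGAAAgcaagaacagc

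These lie on the minus strand at chr9:96418387-96418416 for ZNF367, chr3:48188443-48188472 for CDC25A and chr1:35769965-35769994 for CLSPN, and on the plus strand for the others. The latter are at chr2:47783137-47783166 for MSH6, chr17:40287875-40287904 for CDC6, chr1:212035729-212035758 for DTL, chr16:88803743-88803772 for CDT1 and chr6:24775322-24775351 for GMNN. The motif began 35 bases before the start in ZNF367 and in CDT1, 44 in CDC25A, 80 in GMNN, 8 in DTL and 5 in CLSPN. In MSH6 and CDC6 it lay just after the start, in the first exon. RNA of CLSPN, the checkpoint mediator claspin, went from 16.03 to 6.47 FPKM.

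**Figure D3:**
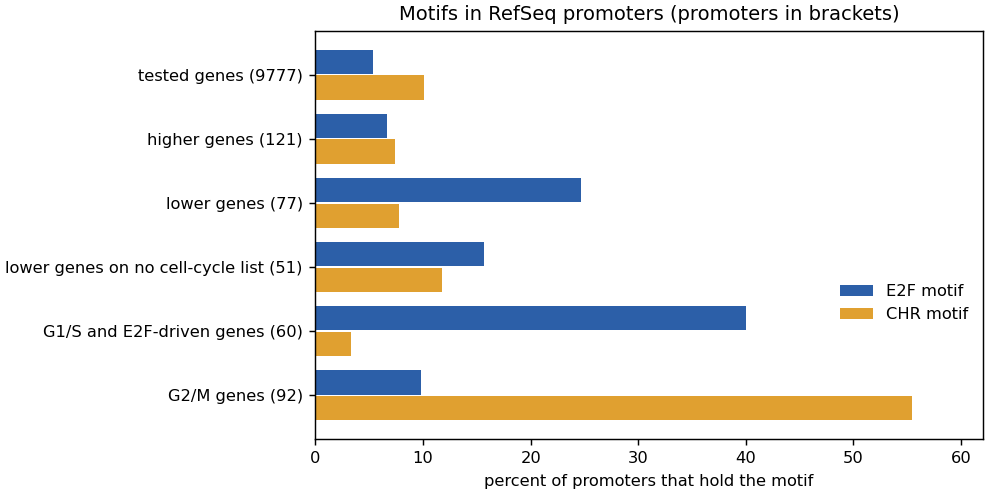
Percent of RefSeq promoters that hold the E2F motif (blue) or the CHR motif (yellow), for promoters of all members and of 5 sets of genes, with the number of promoters in brackets. The E2F motif is in 24.7% of promoters of lower genes and 40% of those on the G1/S list, and the CHR motif in 55.4% of those on the G2/M list.

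Genes of mitosis were below the control in RNA, mostly by less than 2-fold. All 89 tested G2/M genes were below 0, between -1.03 and -0.044, with a median log2 change of -0.48, and 2 were called, 2.25% against the background of 0.825%. The 2 calls were LMNB1, which encodes lamin B1, from 58.8 to 28.8 FPKM, and SGOL1, the shugoshin that guards centromere cohesion, from 6.82 to 3.34 FPKM. CCNB1, cyclin B1, was at 92.8 FPKM in the control and 72.2 FPKM at 4 h, and CDC20, the activator of the anaphase-promoting complex, at 124 and 87.5 FPKM. MKI67, the proliferation marker Ki-67, was at 77.6 and 50.4 FPKM. Of the D-type cyclins, their kinases and CDK inhibitors, 2 of 14 fell. These were CDKN2D, the gene of p19INK4D, from 19.6 to 8.02 FPKM, and RBL1, the pocket protein p107, from 9.72 to 4.20 FPKM. CCND1, cyclin D1, was at 389 and 483 FPKM, a log2 change of 0.31.

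Sterol genes were lower as a group. All 23 tested genes of cholesterol synthesis and uptake were below 0, with a median log2 change of -0.38, and 2 were called. Among the called, INSIG1, which holds the sterol sensor in the endoplasmic reticulum, was at 17.1 FPKM in the control and 8.06 FPKM at 4 h. Of 14 genes of fatty acid synthesis none was called, with a median log2 change of -0.22, and LPIN1, a phosphatidate phosphatase, was the furthest from 0 at -0.74.

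Most housekeeping groups stood near the median of all genes. The 77 ribosomal protein genes had a median log2 change of -0.04 and lay between -0.13 and 0.18, with none called. That small median was 0.04 once changes were centred on the median of all genes, so its sign depends on the scaling. No gene was called among 44 translation factors, 72 ribosome biogenesis genes, 65 mitochondrial ribosomal proteins, 32 proteasome subunits, 35 subunits of oxidative phosphorylation, 44 splicing factors, 20 heat shock proteins, 21 interferon and antigen presentation genes, 25 genes of glycolysis and hypoxia, 14 chromatin factors, 2 histone genes or 32 genes of collagens and matrix glycoproteins. The largest differences upward and downward among these lists were those of VEGFA, the endothelial growth factor, at 4.98 and 9.40 FPKM (log2 0.92) and EZH2, the polycomb methyltransferase, at 24.4 and 13.7 FPKM (-0.83). Other members that differed most on their lists, none of them called, were COL4A1, a basement membrane collagen, at 58.3 and 95.7 FPKM (0.72), BRIX1, of ribosome assembly, at 23.1 and 13.9 FPKM (-0.74), TAP1, a peptide transporter of antigen presentation, at 18.2 and 27.8 FPKM (0.61) and SRSF7, a splicing factor, at 58.6 and 39.2 FPKM (-0.58). The furthest from 0 on the more even lists were MRPL46 (-0.50), EIF2S2 (0.41), HSPA1A (-0.24), COX7C (-0.21), HIST1H2BK (-0.19), RPS19 (0.18) and PSMC6 (-0.17). The reference genes ACTB, GAPDH, VIM and COL1A1 were at log2 changes of 0.04, -0.05, -0.02 and -0.01.

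The remaining lists held 1 or 2 calls each. HMOX1, heme oxygenase, rose from 23.8 to 60.3 FPKM as the 1 call among 20 antioxidant genes. ACTA2, smooth muscle actin, rose from 21.5 to 48.3 FPKM as the 1 call among 21 contractile and YAP-responsive genes. PDGFA, a platelet-derived growth factor, rose from 3.11 to 7.95 FPKM as the 1 call among 26 growth factors and receptors. In the TGF-beta and BMP list 1 gene rose and 1, BMP4, fell, among 19 genes. BHLHE40 was the 1 call among 8 clock genes, and 1 of 20 matrix proteases and inhibitors rose.

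Of the 109 higher genes, 39 were on no list. KRT17, a keratin of basal epithelium, was below the floor in the control at 0.550 FPKM and reached 5.16 FPKM, at least 5.16-fold higher, while the epithelial markers summed to 0.874 FPKM in the control and 0.671 at 4 h. C1orf183 went from 2.05 to 9.24 FPKM and ZFPM1, a cofactor of GATA factors, from 1.18 to 5.27 FPKM. ESM1, a secreted proteoglycan, went from 16.6 to 53.8 FPKM. ITGA2, the collagen receptor subunit alpha-2, rose from 34.2 to 107.7 FPKM, and STC1, a secreted glycoprotein, from 21.7 to 57.4 FPKM. SLC30A1, a zinc exporter, rose from 9.13 to 28.7 FPKM. The metallothionein genes MT1X, MT1E and MT1A, which bind zinc, went from 16.8 to 48.5, from 22.2 to 50.5 and from 10.8 to 23.3 FPKM. These 3 are near-identical copies and their shared reads were discarded, so the level of each is uncertain. ITGA2, STC1, SLC30A1, MT1E and MT1A were picked out after their values were seen.

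The other times put the 4 h library within the course of the response. They share its control, so only the values are set side by side. The sequencing runs of the 2 and 4 h libraries are not known, and reference genes also differed between 4 and 6 h, in part also between the control and 6 h. ACTB stood at 4061, 4124 and 4190 FPKM in the control and at 2 and 4 h, and at 2700 and 2658 at 6 and 19 h. At 4 and 6 h GAPDH stood at 2284 and 2692, VIM at 4146 and 4337 and COL1A1 at 1634 and 1501. The part of a run in the differences between times was not tested. The called genes were chosen by their 4 h value, which in itself favours that library as the highest or the lowest. Among the 109 higher genes, 4 h was the highest of all 5 libraries for 61 genes, the 19 h library for 22, the 6 h library for 18 and the 2 h library for 8. Their median log2 change over control ran through 0.37, 1.38, 1.11 and 1.19 from 2 to 19 h. For these counts levels below 1 FPKM were set to 1, and ties went to the earlier library. So counted, 14 of the 67 lower genes had their lowest level in the 4 h library, 19 in the 6 h library and 34 in the 19 h library. Genes below 1 FPKM at both 6 and 19 h thus fell to 6 h, such as FAM111B, at 0.281 and 0.055 FPKM. The median log2 changes of the lower genes, on floored values, were -0.17, -1.24, -2.33 and -2.73 at the 4 times. No lower gene was 2-fold lower at 2 h already, while 23 of the higher genes were 2-fold higher then.

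For the steady group, CDKN1A ran through 68.6, 212, 914.6, 1204 and 1316 FPKM from control to 19 h, and MDM2 through 14.9, 36.3, 203, 254 and 259 FPKM. TP53I3 was at 7.64, 7.34, 23.004, 100.0 and 111.5 FPKM and FDXR at 7.27, 8.19, 35.1, 99.9 and 92.5 FPKM. The latter pair thus stood below 40 FPKM at 4 h and above 90 FPKM in both later libraries. CDC6 ran through 26.7, 24.96, 8.01, 1.82 and 0.450 FPKM and FAM111B through 15.6, 11.3, 2.68, 0.281 and 0.055 FPKM. The median of the G2/M list was -0.16, -0.48, -2.58 and -4.08 at 2, 4, 6 and 19 h, and that of the G1/S list -0.13, -0.81, -2.73 and -3.28. Levels below 1 FPKM were set to 1 for these medians, so the falls of members under that level are understated.

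At 4 h, 9 of the higher genes were at least 2-fold above each of the 2, 6 and 19 h libraries, and 2 of the lower genes were at least 2-fold below each. GDF15 was at 0.245, 4.82, 70.7, 13.1 and 14.8 FPKM from control to 19 h. DDIT4 ran through 3.05, 10.8, 34.2, 10.1 and 12.1 FPKM, and IL8 through 1.62, 4.38, 12.03, 0.447 and 0.428 FPKM. ESM1 was at 16.6, 16.6, 53.8, 16.8 and 12.3 FPKM, so that 4 h stood apart from the other 4 libraries. E2F7 was close to 10 FPKM in the control and 11.003, 10.6 and 10.3 FPKM at 2, 6 and 19 h, against 30.2 FPKM at 4 h. The other 4 were SLC7A5, PSAT1, TRIB3 and MT1X, of which the first 3 are ATF4 targets. SLC7A5 stood at 53.9, 86.4, 180.4, 42.8 and 59.2 FPKM. The 2 lows were INSIG1, at 17.1, 20.6, 8.06, 21.0 and 29.8 FPKM, and KLF4, at 7.02, 7.32, 2.88, 5.91 and 8.82 FPKM. The ATF4 list as a whole had medians of 0.12, 0.59, 0.13 and 0.00 at the 4 times, and the sterol list -0.01, -0.38, 0.11 and 0.20.

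**Figure D4:**
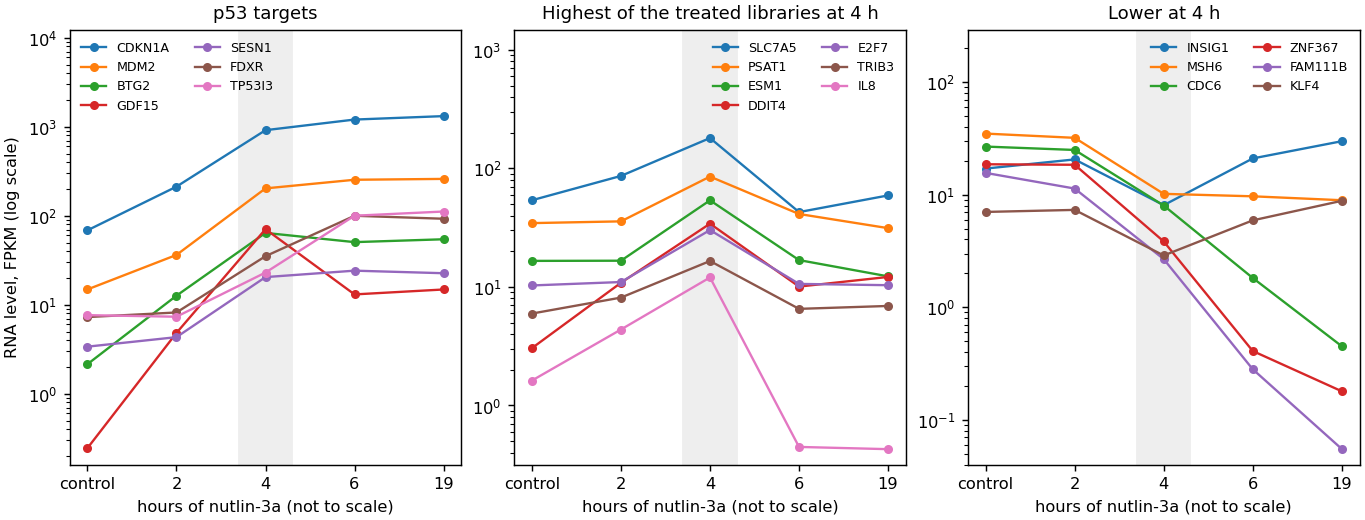
RNA level (FPKM, log scale) in the control library and at 2, 4, 6 and 19 h of nutlin-3a, 1 library per point, for 7 p53 targets (left), 7 genes highest at 4 h (middle) and 6 genes lower at 4 h (right), with 4 h shaded. CDKN1A and MDM2 stay high after 4 h, whereas GDF15, DDIT4 and SLC7A5 fall back from their 4 h level, and CDC6 and FAM111B go on falling.

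Ribo-Seq of the same times came from separate libraries and sequences the mRNA fragments that ribosomes protect, so its level, called ribosome density here, is a second reading of the 4 h response. Of the 8118 genes, 6621 had at least 5 FPKM of Ribo-Seq in the control or at 4 h. Among these, density was at least 2-fold higher for 165 (2.49%) and at least 2-fold lower for 32 (0.483%). Of 91 RNA-higher genes with enough density, 75 were 2-fold higher in density too, which is 82.4%, and 89 were higher by any amount. Of the 91, 32 reached the limit at 4 h only and so had to be higher in density. Among the other 59, which had at least 5 FPKM of density in the control, 43 were 2-fold higher. With no limit on density, 86 of 106 were 2-fold higher and 103 higher by any amount. Of 42 RNA-lower genes 23 were 2-fold lower in density, which is 54.8%, and all 42 were lower by any amount, but 16 of these reached the limit in the control only. Of the other 26, 12 were 2-fold lower, and with no limit on density 32 of 63 were 2-fold lower and 62 lower by any amount. Across the 6621 genes the log2 changes of RNA and density had a Pearson r of 0.726 and a Spearman rho of 0.532. This describes genes in 4 libraries, which came from cells of the same 2 conditions, and genes are not replicates.

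For the genes that met the density limit, changes in RNA and density were set side by side. The RNA-higher genes had a median log2 change of 1.44 in RNA and 1.49 in density, and the RNA-lower genes -1.26 and -1.07. The median of all 6621 genes in density was 0.105. The 2 most abundant transcripts took 14.9% of the recovered Ribo-Seq reads in the control and 4.6% at 4 h, which bears on the scale of all density values and whose part in the median was not tested. In density, CDKN1A went from 164 to 2729 FPKM, GDF15 from 1.63 to 231 FPKM and DDIT4 from 2.87 to 59.6 FPKM. Single genes departed from equal change, as TP53I3 had log2 changes of 1.59 in RNA and 0.84 in density, and MT1X of 1.53 and 0.72. CDC6 went from 17.6 to 6.33 FPKM of density and ORC1 from 5.74 to 2.37 FPKM. The p53 lists together had a median density change of 0.69, the ATF4 targets 0.71, the cytokine list 1.18, the G1/S list -0.51, the sterol list -0.37 and the ribosomal proteins 0.11.

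**Figure D5:**
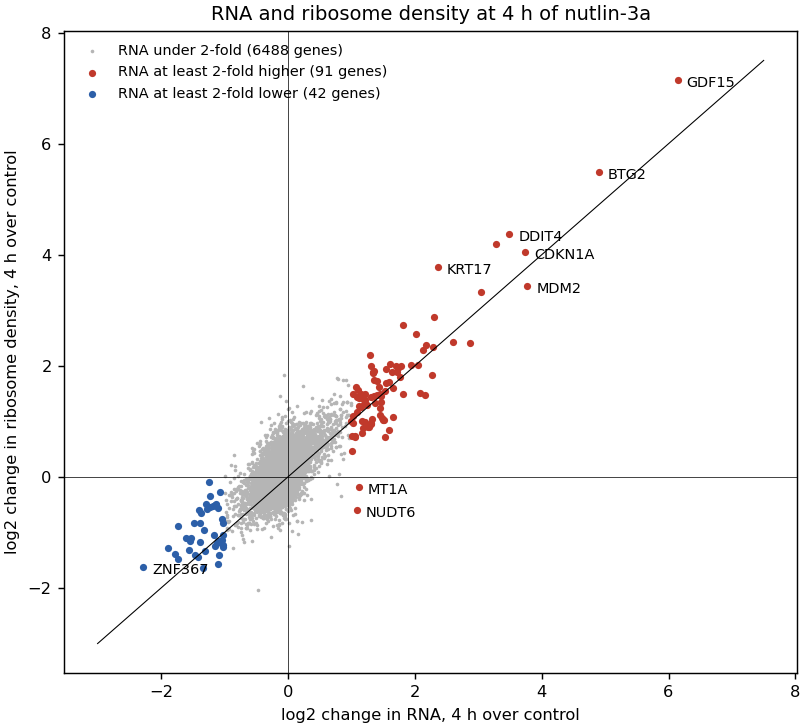
Log2 change in ribosome density (vertical) against log2 change in RNA (horizontal) at 4 h over control for 6621 genes, with RNA-higher genes in red, RNA-lower genes in blue and the diagonal of equal change. GDF15, BTG2 and CDKN1A lie above the diagonal at its upper end, with GDF15 at 6.14 in RNA, from a control at the floor, and 7.15 in density. NUDT6 and MT1A are the 2 of 91 RNA-higher genes with a density change below 0.

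Of the 91 RNA-higher genes that met the density limit, NUDT6 and MT1A had a density change below 0. NUDT6, a nudix hydrolase gene that overlaps FGF2 in antisense, was at 30.3 FPKM of RNA in the control and 64.4 FPKM at 4 h, but at 6.33 and 4.20 FPKM of density. The library kit does not mark strand, so RNA reads of the overlapping genes cannot be told apart. MT1A was at 10.8 and 23.3 FPKM of RNA and 17.5 and 15.4 FPKM of density, a log2 change in density of -0.18 with a counting SE of 0.222, so its density did not differ beyond counting error. It is one of the near-identical metallothionein copies. Among genes with little density, LIF was below the floor in control density at 0.214 FPKM and reached 3.76 FPKM, under the limit for density.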

How the data were processed

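Polyadenylated RNA was sequenced with an unstranded kit in 5 RNA-Seq libraries, and ribosome-protected fragments in 5 Ribo-Seq libraries. As the study's methods describe, reads were mapped by the authors with Bowtie against protein-coding transcripts of Ensembl release 65, 1 isoform for each gene, and reads with more than 1 hit were dropped, which lowers the values of close paralogs. The deposited values, made by the authors, are FPKM for each transcript. The submitters' processing notes also name hg19. The methods describe 6 and 19 h of treatment and a batch effect of sequencing runs, and the runs of the 2 and 4 h libraries are not given in the sources used here. Groups came from the sample labels. The table holding a single column per time and named for both assays was read as RNA-Seq.

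From the deposited values, log2 ratios of 4 h over control were taken after a floor of 1 FPKM, over genes with at least 5 FPKM in either library. A gene was called at 2-fold. The cut-off of the study, which slides with level, is an alternative below, modelled as 1.75 local SDs in windows of 501 genes. Since FPKM are whole reads scaled by length and library total, all of these were solved for from the gaps between values, for 8105 of the 8118 genes. The counting SE of a log2 change was the square root of 1/reads in the control plus 1/reads at 4 h, converted to log2 units. PCR copies cannot be distinguished, so it covers counting error only. Calling and recovery were tested on simulated data. The simulated reads had counting noise only, with no spread between libraries, so they cannot show how reliable a call between unreplicated libraries is. Gene lists were written from general knowledge, and members and lists were chosen with earlier results of these data known. Lists overlap in part. C1orf183 was on a p53 list under another symbol and was therefore not counted there.

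Genes named in the text were the 15 largest rises and falls, up to 4 called members per list (or the member with the largest change), a fixed set of known p53, cell-cycle, stress and housekeeping genes, and up to 10 genes each way that were 2-fold beyond all other treated libraries at 4 h. The results of some of these genes are not reported here. Others are named as list members, as nearest to a limit, or as picked after their values were seen. Alternatives were a pseudocount of 1 FPKM, a floor of 5 FPKM, no filter, a mean of at least 20 FPKM, centring on the median, the 2 h library as baseline, and other cut-offs. Python 3.11 with numpy, pandas and matplotlib was used.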

Additional observations from a re-analysis of the deposited data

Results flagged for a closer look

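Genes called at 4 h were looked at again where they stood at least 0.5 on the log2 scale on the other side of the control at another time or in ribosome density. With 1 library per group none of these differences was tested. IL8 had a log2 change in RNA of 2.89 at 4 h and of -0.70 at 6 h and at 19 h. Its levels of 0.447 and 0.428 FPKM there lay below the floor, so the fall was at least that large. ERRFI1 was at 1.16 at 4 h, -0.69 at 6 h and -0.58 at 19 h. INSIG1 was at -1.08 at 4 h and 0.81 at 19 h. NUDT6 was at 1.08 in RNA and -0.59 in ribosome density at 4 h, and its RNA reads cannot be told apart from those of the overlapping gene FGF2.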

How the results depend on the processing

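The values rest on 1 library a side, and depth limits them most below 10 FPKM, where 42 of the 67 falls lie. No paired analysis was possible because each group held 1 library and the result comes from no test. The 109 higher and 67 lower genes numbered 271 and 345 at 1.5-fold, 38 and 11 at 3-fold, and 324 and 174 by the sliding cut-off. A floor of 5 FPKM left 40 lower genes, no filter gave 102 lower genes, a mean of at least 20 FPKM gave 51 and 5, and the 2 h baseline gave 63 higher genes. A pseudocount left 95 of the 109 and 45 of the 67 called, all in the same direction, and centring 109 and 50. Against the 2 h library 59 of the 109 and 38 of the 67 were still called. The cause of these shifts was not tested.

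With a mean of at least 20 FPKM, fewer members were left, and calls numbered 22 in the p53 lists, 11 in the study's p53 list, 2 lower in the G1/S list and 4 in the cytokine list, with medians of -0.648 for G1/S, 1.088 for cytokines and 0.518 for ATF4 targets. The study's p53 list had a median of 1.53 with a pseudocount, 1.564 with a floor of 5 FPKM and 1.064 against 2 h. The cytokine median was 0.746, 0.578, 0.558 and 0.036 with a pseudocount, a floor of 5 FPKM, no filter and the 2 h baseline, which left 1 call. The floor of 5 FPKM left 11 lower G1/S genes. Centring gave medians of 0.669 for ATF4 targets and 0.04 for ribosomal proteins. Against 2 h, medians were -0.319 for G2/M, -0.789 for immediate-early genes, 0.377 for ATF4 targets, with 7 calls, and 0.092 for ribosomal proteins. Of the 109 higher genes, 8 changed sign against 2 h: LIF (-0.825), BHLHE40 (-1.091), IL11 (-0.337), PTGS2 (-0.071), GADD45A (-0.053), ERRFI1 (-0.546), CEBPB (-0.047) and GEM (-0.011). No other setting turned a called gene.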
